A study of Xenopus tropicalis with 26 samples.

Results

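The RNA store of cleavage and blastula embryos of Xenopus tropicalis, the western clawed frog, was set against the RNA of an adult female. With earlier results of these data known, the comparison used 6 of the 26 libraries of the series, chosen by their labels. Of these, 2 were technical repeats from the whole body of 1 adult female, and 4 came from embryo pools at stages 6 and 8, each stage from family 1 and family 2. All 6 were made by whole transcriptome target sequencing (WTTS), in which RNA is fragmented, the polyadenylated pieces are kept, and reads therefore come from the ends of transcripts. The strain and age of the frog, whether it was a parent of either family, and whether it was 1 of the 3 females whose RNA entered the adult pool of the series were not stated in the labels. No treatment or genetic change is given for any of these samples. The question was which features of the early store were also high, or absent, in the adult.

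In frogs the RNA of the early embryo is made by the mother. Oocytes growing in the ovary transcribe and store it, the fertilised egg divides with little transcription of its own, and the embryo's genes come on around the midblastula transition. Translation of many stored RNAs is set by the length of the poly(A) tail, which is changed in the cytoplasm during oocyte maturation and early cleavage. The whole body of an adult female holds an ovary alongside all the somatic tissues, so early embryos and an adult female can share RNAs that either the germ line or many cell types hold.

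Because the female libraries are repeats of 1 frog, the adult side had a single sample, no p-value was computed for it, and the spread between its libraries is technical. The female libraries held 11403853 and 22287985 counts over 27836 features, and the 4 embryo libraries held 1536128 to 6276132. Levels are given as normalised CPM, which is counts as a share of a library size scaled by the TMM method over the 6 libraries. The features carry identifiers, scaffolds and positions but no gene names, and no identifier was found in the RefSeq gene table, so no role is given to any of them. For the same reason the labelled tissue and sex could not be checked against marker genes. The genome build behind the positions, and whether they count from 0 or 1, are not given in these sources.

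Almost all of the early store was present in the adult female, and at a similar level. The store was taken as the 7315 features that reached at least 10 CPM in each of the 4 embryo libraries, which was 20 counts or more in each library. All 7315 had counts in both female libraries, the smallest sum over the repeats being 15 counts, and 6810 of them, or 93.1%, reached 10 CPM in both. The median ratio of the female to the embryo mean was 1.03, with quartiles of 0.727 and 1.49, and 5652 store features, or 77.3%, lay within 2-fold. In bulk samples such as these, fewer cells of a type and less RNA per cell cannot be told apart.

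A store feature was called higher or lower in the female when the group means differed by at least 4-fold and the 2 female values did not overlap the 4 embryo values. By this rule 257 store features, 3.51%, were higher in the female, 157, 2.15%, were lower, and 6901, 94.3%, were neither. Over the 15533 features whose mean reached 1 CPM in either group, 13.5% were higher and 5.11% were lower, so differences of this size were less common within the store than over all features. The store was chosen to be high in the embryos, which by itself limits how many of its features can be higher in the female. The split depends on scaling. With library totals in place of TMM the median log2 ratio of the store moved from 0.04 to -0.32, and 172 store features were higher and 264 lower.

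**Figure D1:**
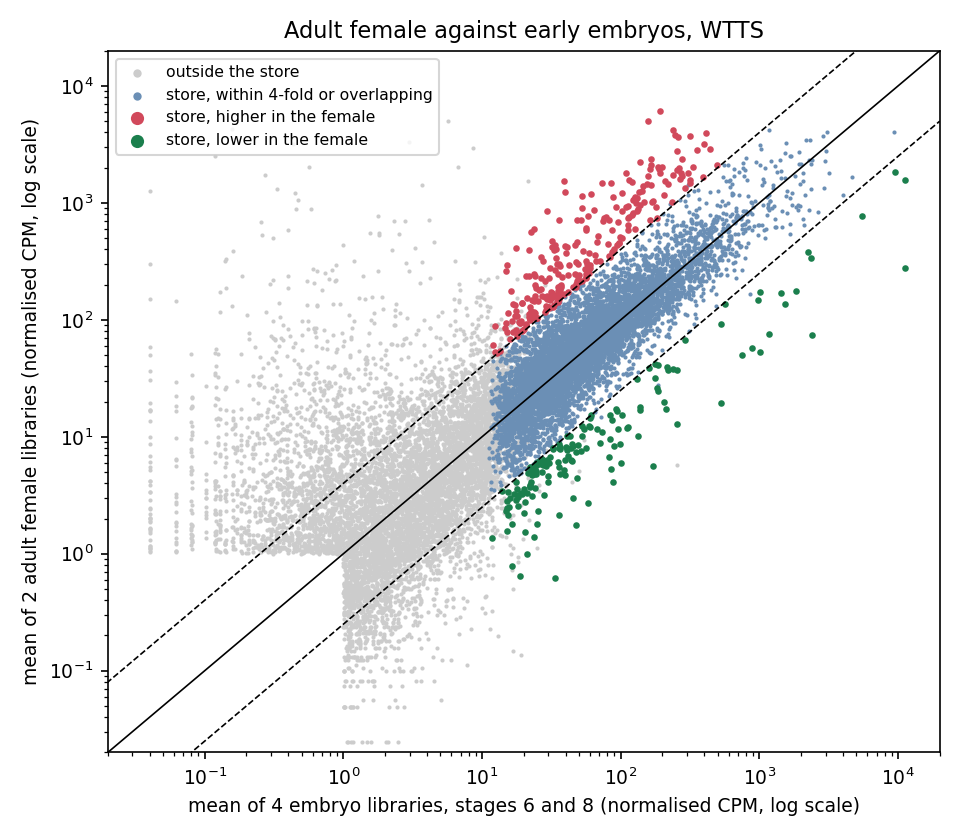
Each point is a feature, at its mean over the 4 embryo WTTS libraries of stages 6 and 8 (horizontal axis) and over the 2 libraries of the adult female (vertical axis), both in normalised CPM on log scales. The solid line marks equal levels and the dashed lines a 4-fold difference. Features at 0 in either group, 127 of the 15533, cannot be drawn. The blue band of 6901 store features follows the line of equal levels, with 257 red features above it and 157 green features below.

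The repeats of the female show technical spread only, and no spread between frogs was measured. Between the repeats, store features differed by a median absolute log2 of 0.38, and 0.793% differed by 4-fold or more. Between the families the same measure was 0.34 at stage 6 and 0.36 at stage 8. Repeats of 1 frog thus differed about as much as pools of different families did. The features that were higher in the female had a larger median difference between the repeats, 0.55, and were higher in repeat 1 by a median log2 of 0.44.

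The order of features was also alike. Spearman correlations across features between a female and an early embryo library lay between 0.763 and 0.838 over 8 pairs, against 0.931 to 0.963 among the 4 embryo libraries and 0.966 between the female repeats. Embryos of stage 28 correlated with those of stages 6 and 8 at 0.529 to 0.592, lower than the adult female did in each of its 8 pairs. Stage 11 gave 0.693 to 0.787, which overlaps the range of the female. The 7 trials of the adult pool, which mixed RNA of both sexes, gave 0.343 to 0.764 with a median of 0.545, the last 2 trials lying between 0.725 and 0.764. These correlations are descriptions, each over features whose counts summed to 10 or more, and the libraries differ in depth.

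The lists of the most abundant features were shared in part. Of the 100 most abundant features of the early embryo, 38 were among the 100 most abundant of the female. The shared part grew to 297 of 500, 680 of 1000 and 4150 of 5000, and such a part grows with list length in any case. The 100 leading embryo features all had at least 10 CPM in the female, where their median rank was 143.5 and the lowest rank 4271. Conversely, 90 of the 100 leading female features belonged to the early store, which holds 7315 of the 15533 features. Of the 8473 features at 10 CPM or more in both female libraries, 80.4% belonged to it. Of the 100, 47 were at least 4-fold higher in the female, against 13.5% of the 15533. These 100 were picked for a high female level, which by itself favours higher calls.

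XLOC_016473 was the feature with the highest level common to both groups after XLOC_023925. It lies on scaffold_5 from 26006308 to 26012517 on the minus strand. It had 3765 and 4297 CPM in the female repeats, 3416 and 3276 CPM at stage 6 in families 1 and 2, and 2305 and 3257 CPM at stage 8. The female values lay above all 4 embryo values, but only 1.32-fold above their mean of 3063 ± 511 CPM (SD, n = 4), and the feature ranked number 7 in the female and number 9 in the embryos. In the embryos of stage 11 its level was 432 and 353 CPM, below all 6 libraries of the comparison. RNA-seq, described further on, gave another picture for the adult pool of both sexes. There the feature had 358 CPM, 6.13-fold below the mean of 2191 CPM in the early embryo pools, while WTTS of that adult pool ranged from 363 to 5463 CPM over its 7 trials.

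XLOC_023925 lies on scaffold_8 from 106807410 to 106826726 on the plus strand and overlaps a feature on the other strand, and whether counting kept their reads separate by strand is not known. It had 4356 and 3662 CPM in the female, 9239.7 and 10325 CPM at stage 6, and 14195 and 3831 CPM at stage 8. The groups overlapped, since family 2 at stage 8 lay between the female repeats. Its rank was 8 in the female and 4 in the embryos.

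The 257 store features that were higher in the female were 4.00-fold to 39.8-fold above the embryo mean, with a median of 6.39-fold. They held 2.11% to 2.65% of the counts of the 4 embryo libraries and 16.5% and 13.7% of the counts of the female libraries. XLOC_021031, on scaffold_7 from 104945338 to 104947903, plus strand, had the largest ratio. It had 1706 and 1372 CPM in the female, against 21.0 and 44.5 CPM at stage 6 and 68.6 and 20.8 CPM at stage 8. Both female values lay far above every embryo value, and the ratio of means was 39.8.

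XLOC_025333, on scaffold_8b from 1581043 to 1584769, plus strand, was the most abundant feature of the female by mean level and ranked number 931 in the embryos. It had 8787 and 3429.9 CPM in the female, and 211, 189.6, 273 and 89.8 CPM in the embryos in the same order of stage and family. The ratio of means was 32.0. The female repeats themselves differed by more than 2-fold, and without repeat 1 the log2 ratio fell from 5.00 to 4.14. Its span is shared in part with an opposite-strand feature.

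The 157 store features that were lower in the female were 4.01-fold to 53.6-fold below the embryo mean, with a median of 6.06-fold. This count rests on the second female repeat, since 254 store features met the rule without it. The 157 held 4.36% to 9.30% of the counts of the 4 embryo libraries and 0.571% and 0.749% of those of the female. They were most common among the features with the highest embryo means in WTTS. Of the 94 store features with an embryo mean of 1000 CPM or more, 13 were lower in the female, 13.8%, and 0 were higher, whereas between 10 and 30 CPM 59 of 1982 were lower, 2.98%, and 77 were higher. The embryo mean sets both these groups and the ratio, which by itself favours lower calls at high means. RNA-seq of the same embryo pools, described further on, gave the 13 a median of 228 CPM and the 94 a median of 544 CPM.

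XLOC_011769 was the second most abundant feature of the early embryo by WTTS. It lies on scaffold_364 from 10437 to 16569 on the minus strand. It had 325 and 228 CPM in the female, 6484 and 15676 CPM at stage 6, and 16125 and 6720.2 CPM at stage 8. Every embryo value was far above both female values, and the means differed 40.7-fold. The feature nonetheless ranked number 813 in the female, so it was low there only by comparison.

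XLOC_024343, on scaffold_8 from 42662883 to 42690968, minus strand, had the largest ratio among the 157. It had 0.901 and 0.345 CPM in the female, which were 8 and 7 counts, and 36.4, 29.6, 41.7 and 25.9 CPM in the embryos. That was a 53.6-fold difference. XLOC_011769 and XLOC_024343 were chosen after their values were seen, because the rule for naming features took those with at most 3 counts in the female and no store feature had so few.

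**Figure D2:**
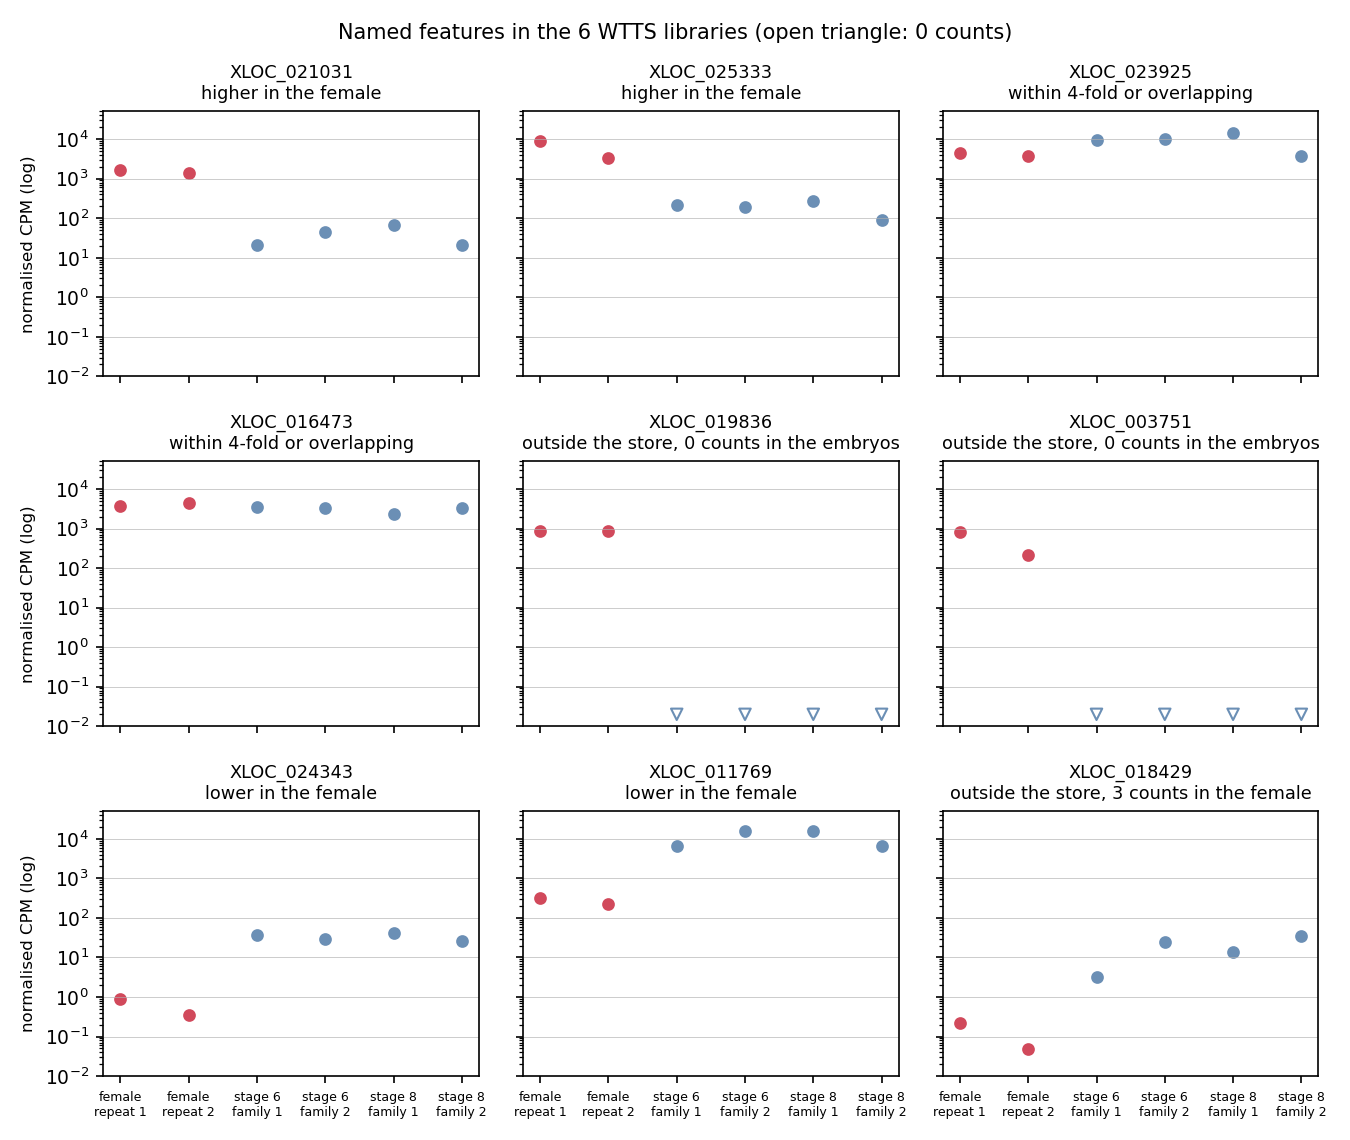
Each panel shows 1 feature in the 6 WTTS libraries, with normalised CPM on a log axis, red points for the 2 repeats of the adult female and blue points for the 4 embryo libraries. Open triangles stand for 0 counts and are placed at the foot of the axis. XLOC_016473 is nearly level across the 6 libraries, XLOC_021031 and XLOC_025333 are far higher in the female, and XLOC_011769 and XLOC_024343 are far higher in the embryos.

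Few features of the early embryo were near or at 0 in the adult female. No store feature had 3 or fewer counts over both female libraries, a limit of 0.103 CPM. The count was 1 without repeat 2 of the female and 1 without family 1 of stage 6. Over all features, 75 of the 13849 with an embryo mean of at least 1 CPM had at most 3 counts in the female, and 15 had 0 counts. At an embryo mean of at least 2 CPM it was 23 of 12037.

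At an embryo mean of at least 10 CPM there was 1 such feature among 8354, XLOC_018429, on scaffold_6 from 105632943 to 105637641, plus strand. It was chosen after its values were seen. It had 2 and 1 counts in the female, or 0.225 and 0.0493 CPM, and 3.22, 24.0, 13.9 and 35.8 CPM in the embryos. All embryo values lay above the female, but they spread more than 10-fold, and family 1 at stage 6 kept the feature out of the store. The ratio of means was 140.1, with an exact 95% interval for the 3 female counts from 47.9 to 679. RNA-seq of the same embryo pools gave 11.1 and 16.3 CPM at stage 6 and 9.50 and 12.0 CPM at stage 8, a narrower range. The feature was not near 0 in all adult libraries. The adult pool had 7.44 CPM by RNA-seq, 1.64-fold below the embryo mean. By WTTS it had 19.0 and 10.6 CPM in trials 2 and 3, and at most 0.407 CPM in the other 5 trials. The values of trials 2 and 3 were 99 and 28 counts, raised by low TMM scaling factors of 0.123 and 0.163. In these libraries 10 features held 72.1% and 66.3% of the counts, and no other scaling was run for the pool.

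In the other direction, 38 features with at least 10 CPM in both female repeats had 0 counts in all 4 embryo libraries. Over these libraries 3 counts are 0.196 CPM, and the number rests in part on the deepest of them, since it was 64 without family 2 of stage 6. XLOC_019836, on scaffold_6340 from 197 to 3356, minus strand, had 867 and 865 CPM in the female, at least 4427-fold above the embryos. XLOC_003751, on scaffold_10 from 10334927 to 10340353, plus strand, had 828 and 215 CPM in the female, at least 2667-fold above. The repeats agreed closely on the former and differed almost 4-fold on the latter. RNA-seq of the same embryo pools, described further on, detected some of the 38. Per library 18 to 21 of them had 0 counts there, and 0 reached 10 CPM. XLOC_019836 had 1 to 5 counts in each of these 4 libraries, and XLOC_003751 had 7 to 12.

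Few of these 38 features were high in later embryos. The number at 10 CPM or more was 1 and 2 of 38 at stage 11, 1 and 2 at stage 15 and 3 and 2 at stage 28. In the 7 trials of the adult pool it was 31 to 37, and in the RNA-seq library of that pool 30. Over the 15533 features, 51.2% to 56.3% reached 10 CPM in these embryo libraries. In the trials it was 47.0% to 63.0%, and in the RNA-seq library 62.1%. The 38 were chosen as high in an adult and unseen in early embryos, which by itself favours this pattern. XLOC_019836 had 2377 to 4572 CPM in the 7 trials, above both female values in each. For trials 1 to 4 this order depends on scaling. Their TMM scaling factors were 0.250, 0.123, 0.163 and 0.300, against 0.779 and 0.910 in the female. Such low factors raise the CPM of these trials, and no other scaling was run for the pool. The spans of the 38 were short, with a median of 3545 bp, against 21723 bp over the 15533 features.

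Fewer store features lay far below their early level in the adult female than in embryos past the blastula stage, but this did not hold for features far above it. In the female repeats 3.25% and 2.11% of store features lay at least 4-fold below their mean at stages 6 and 8. In the embryos this share was 8.17% and 13.1% at stage 11, 17.9% and 19.97% at stage 15, and 19.0% and 22.4% at stage 28. Over the 15533 features these shares were 7.88% and 6.06% in the female, 9.80% and 13.1% at stage 11, 19.7% and 18.7% at stage 15, and 15.1% and 17.4% at stage 28. The stage 11 and stage 15 shares of the store were thus near those of all features. Over all 15533 features, too, both female shares were below those of every later embryo library. Store features at least 4-fold above their early mean made up 4.52% and 2.84% in the female and 2.11% and 1.33% at stage 11. They made up 4.05% and 2.83% at stage 15, and 4.16% and 2.88% at stage 28. Over the 15533 features the shares above were larger, 14.7% and 12.9% in the female and 7.72% to 17.6% in embryos of stages 11, 15 and 28. All these shares use the same early libraries as reference, the 7315 features were chosen to be high in those libraries, and the later embryo libraries are shallower than the female ones. Store features took 95.2% to 96.2% of counts at stages 6 and 8, and 88.7% and 89.0% in the female. At stage 11 they took 93.1% and 90.1%, above both female libraries. The shares were 88.8% and 85.7% at stage 15, and 81.3% and 79.7% at stage 28. The trials of the adult pool varied, from 3.27% of store features at least 4-fold below in trial 7 to 31.3% in trial 1, and the cause was not tested.

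**Figure D3:**
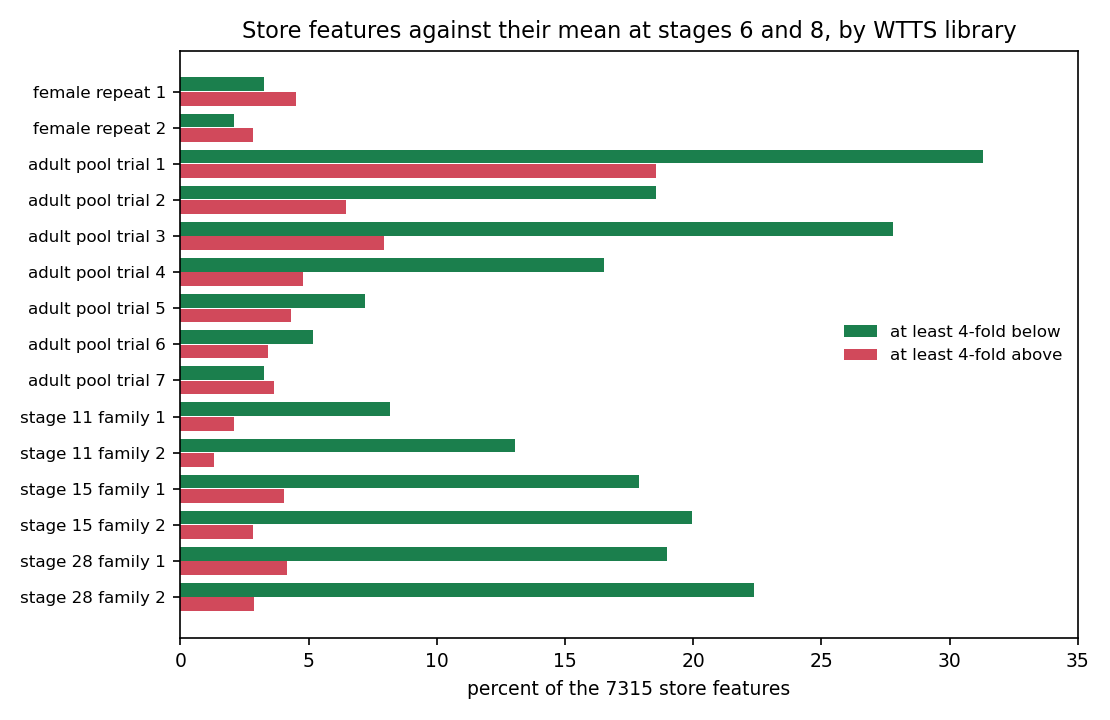
Bars give, for each WTTS library outside stages 6 and 8, the percent of the 7315 store features at least 4-fold below (green) or above (red) their mean at stages 6 and 8. The female repeats have green bars of 3.25% and 2.11%, next to 3.27% in the last trial of the adult pool, while stage 28 reaches 22.4%.

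The share of store features higher in the female fell as feature length grew, while the share lower did not change in order with length. The median span, introns included, was 7208 bp for features higher in the female, 21951 bp for those called neither way and 28086 bp for those that were lower. Among store features spanning under 3 kb the median ratio of female to embryo was 1.46, and 24 of 184 were higher, 13.0%. Among those of 30 kb or more the median ratio was 0.903, and 26 of 2762 were higher, 0.941%. The share of lower features was 4.35% and 2.79% in these same groups. From 3 to 10 kb 10.1% were higher and 1.60% lower, and from 10 to 30 kb 2.08% and 1.67%. Over the 15533 features of any span, 13.5% were higher and 5.11% lower. These shares were not split by span, so whether the trend is particular to the store is not known.

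RNA-seq libraries of the same embryo pools, and 1 RNA-seq library of the adult pool, gave a second readout, with reads from along the transcript. No library was shared with the comparison above, but the embryo pools were, and the adult RNA was the mixed pool and not the female alone. Over 16526 features with at least 1 CPM, 26.3% were at least 4-fold higher in the adult pool than in the mean of the 4 embryo libraries and above all 4, and 10.2% were lower by the same rule. For the whole store these shares were 4.66% and 15.0%. All these ratios rest on TMM scaling factors of 1.20 for the adult library and 0.744 to 0.867 for the 4 embryo libraries. These factors, set against a WTTS library, lower each ratio of adult to embryo compared with library totals. No other scaling was run for the RNA-seq libraries.

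For features higher in the female, RNA-seq pointed the same way. Of the 257, 149 were at least 4-fold higher in the adult pool by RNA-seq, 58.0%, against 4.66% of the store and 26.3% of the 16526 features. None of the 257 was at least 4-fold lower, although in 10 of them the adult pool lay below all 4 embryo libraries. The median ratio was 4.74, against 0.504 for the store. XLOC_021031 had 17.9 and 51.2 CPM at stage 6, 65.8 and 20.8 CPM at stage 8, and 2018 CPM in the adult pool. These embryo values were close to those of WTTS, and the order of the 4 pools was nearly the same.

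For features lower in the female, RNA-seq did not give a single direction. Of the 157, 37 were at least 4-fold lower in the adult pool, 23.6%, against 15.0% of the store and 10.2% of the 16526 features. At least 4-fold higher were 29, 18.5%, against 4.66% and 26.3%. The median ratio of 0.502 was that of the store as a whole. In WTTS of the same adult pool, 47.8% to 73.9% of the 157 lay at least 4-fold below their early embryo mean over the 7 trials, with 73.9% and 64.97% in trials 6 and 7. Over the 15533 features this share was 5.91% to 37.5%, with 9.43% and 5.91% in trials 6 and 7. The 157 were chosen against the same early embryo libraries. XLOC_024343 was lower by both methods, at 44.7, 26.3, 46.8 and 35.8 CPM in the embryos and 5.17 CPM in the adult pool by RNA-seq.

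XLOC_011769 was not. By RNA-seq it had 61.0 and 82.8 CPM at stage 6, 63.4 and 64.8 CPM at stage 8 and 98.1 CPM in the adult pool, the highest of the 5 values. Its WTTS level in the embryos was 165-fold its RNA-seq level in the same pools. A gap of this kind was common among the 157. In 62 of them, 39.5%, the embryo mean was at least 10-fold higher in WTTS than in RNA-seq, against 225 of the 7315 store features, 3.08%. Over the 16526 features the share was 10.6%. Among the 13 most abundant of the 157 it was 8, with a median of 22.6-fold, against 20 of the 94 store features at 1000 CPM or more, 21.3%, with a median of 2.95-fold. CPM of the methods depends differently on transcript length, so these ratios compare shares of library sizes as scaled by TMM. The 157, and the most abundant among them, were picked by high embryo means in WTTS. The same means enter these ratios, which by itself favours such gaps.

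**Figure D4:**
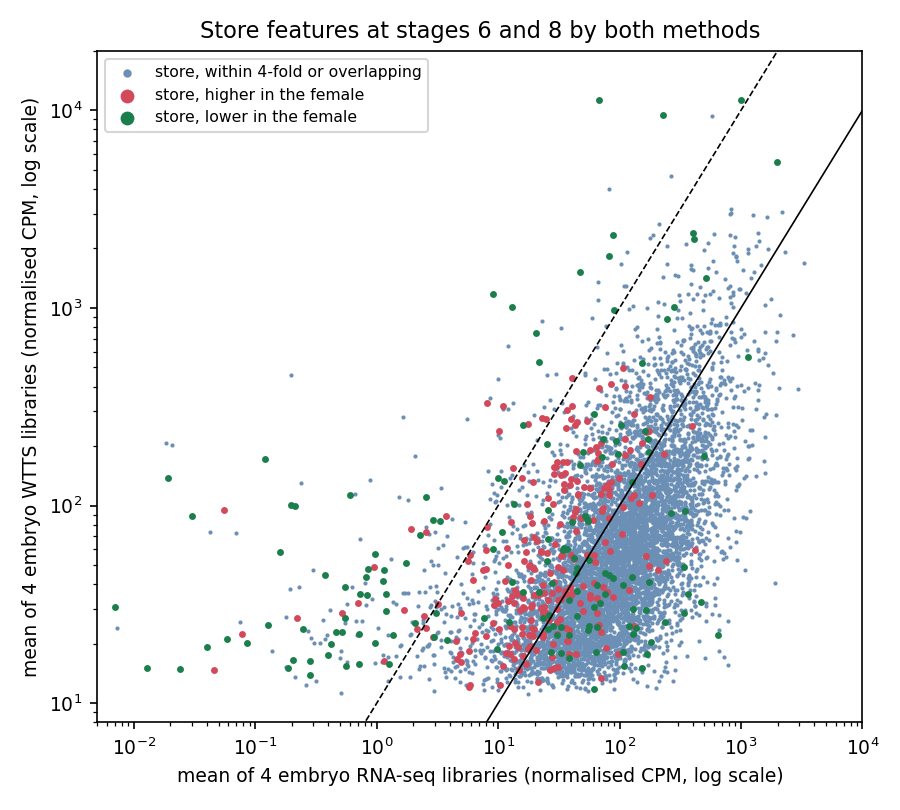
Store features at stages 6 and 8, by their mean in the 4 embryo RNA-seq libraries (horizontal axis) and in the 4 embryo WTTS libraries of the same pools (vertical axis), in normalised CPM on log scales. The solid line marks equal levels and the dashed line a 10-fold higher level in WTTS. The 4 store features with 0 counts in RNA-seq are not drawn. Of the 157 green features, 62 lie above the dashed line or at 0 in RNA-seq.

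The WTTS libraries of stages 11, 15 and 28 share neither library nor embryo pool with the female comparison, although they come from the same 2 families, which are biological replicates. They were used to ask how the classes of the early store went on to change in the embryo. Between stages 11 and 28, 2511 of 13045 features rose and 1997 fell, which was 19.2% and 15.3%. These calls are from edgeR's quasi-likelihood test at an adjusted p below 0.05, in a fit without family. Of the 253 tested features that were higher in the female, 141 rose, 55.7%, and 32 fell, 12.6%. Of the 6843 called neither way 8.08% rose and 20.4% fell, and of the 154 that were lower 1.95% rose and 27.9% fell. Median log2 changes in these classes were 1.57, -0.34 and -0.92, against 0.05 over all features tested.

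The sizes of these shares depend on single libraries. Without family 1 of stage 28, 39.2% of features higher in the female rose, against 10.8% of all tested, and 13.5% of those lower fell, against 6.66%. Without family 1 of stage 11 these shares were 46.8% against 10.8%, and 15.6% against 7.99%. With family as a block, 3288 of the 13045 features rose and 2877 fell. In that fit 44.8% of features lower in the female fell, against 22.1% of all tested. Of those called neither way 13.3% rose, against 25.2%.

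**Figure D5:**
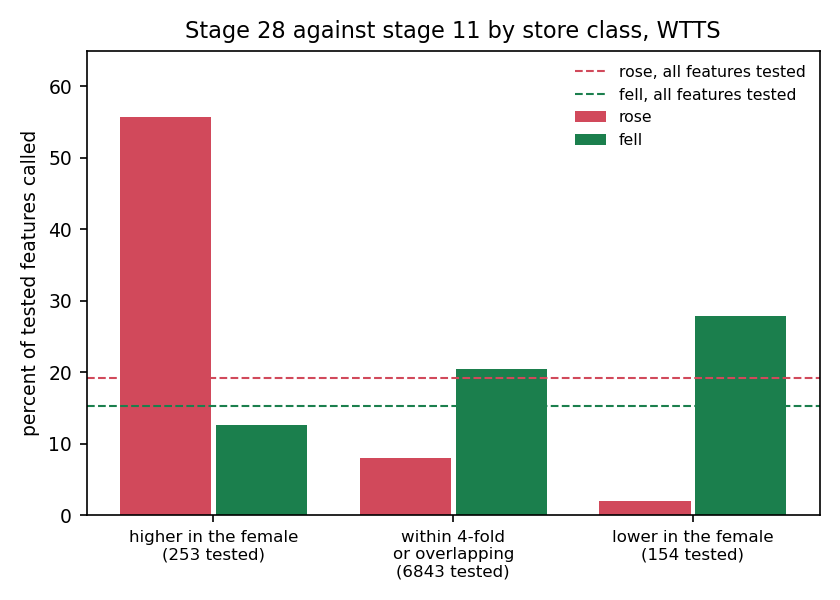
Percent of tested store features that rose (red bars) or fell (green bars) between stages 11 and 28 in WTTS, at an edgeR adjusted p below 0.05, by class in the female comparison. Dashed lines give the same percent over all 13045 features tested, 19.2% for rising and 15.3% for falling features. In the class higher in the female 55.7% rose.

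Store features at similar levels in the female and the early embryo included some that were later at or near 0 in the embryo. XLOC_019325, on scaffold_6 from 105393634 to 105403614, minus strand, had 86.9 and 149 CPM in the female and 90.1, 65.7, 99.5 and 106 CPM at stages 6 and 8. It had 55.3 and 24.4 CPM at stage 11, 18.2 and 14.5 CPM at stage 15 and 0 counts at stage 28. It fell at least 104-fold between stages 11 and 28 (edgeR adjusted p = 0.000323).

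XLOC_025406, on scaffold_8b from 1473863 to 1477898, minus strand, had 69.3 and 80.9 CPM in the female and 75.5, 33.7, 55.6 and 29.6 CPM in the early embryos. Unlike XLOC_019325 it was higher at stage 11 than in any of the 6 libraries compared, at 329 and 149 CPM, and it had 24.5 and 7.52 CPM at stage 15. At stage 28 there was 1 count in family 1 and none in family 2. It fell between stages 11 and 28 (edgeR adjusted p = 0.000149) by a ratio of 2329, with an exact 95% interval for that count from 418 to 91975.

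Others were higher at stage 28 than at stage 11, and already at stage 15. XLOC_013409, on scaffold_4 from 116128452 to 116151908, plus strand, had 13.9 and 32.2 CPM in the female and 15.4, 28.5, 17.1 and 30.6 CPM in the early embryos, where the groups overlapped. It had 183 and 196 CPM at stage 15. It rose from 8.87 ± 3.24 CPM at stage 11 to 482 ± 27.4 CPM at stage 28 (SD, n = 2), a log2 change of 5.80 (SE 0.44, edgeR adjusted p = 0.000101). Part of its span is shared with an opposite-strand feature.

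XLOC_008104, on scaffold_2 from 127513299 to 127516365, minus strand, had 119.6 and 105 CPM in the female and 81.7, 120.5, 118 and 80.9 CPM in the early embryos. It had 14.5 and 5.07 CPM at stage 11, 350.3 and 129 CPM at stage 15, and 426 and 99.3 CPM at stage 28. The families were far apart at the later stages, and family 2 was lower at stage 28 than at stage 15. The log2 change was 4.72 (SE 0.81, edgeR adjusted p = 0.00266).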

How the data were processed

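The authors deposited raw whole-number counts per feature for 27836 features in 26 libraries. Per the labels' protocols, RNA was extracted with Trizol, and the libraries followed Illumina and Ion Torrent protocols. The sources used here do not give the aligner, counting program, genome build or strand setting.

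Libraries were scaled by TMM (edgeR 4.0.16 in R 4.3.3) over the 6 libraries compared, and the other libraries were put on the same scale with the same reference library. The CPM of libraries outside the 6 was not computed under any other scaling. Classes use at least 10 CPM in each early embryo library, a 4-fold ratio of means and no overlap. Intervals are exact and cover counting error only. Stages 11, 15 and 28 were fitted with stage as the factor, filterByExpr, and Benjamini-Hochberg adjustment. SE was derived from the log2 change and the F statistic. On simulated data the test was checked before use.

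Families pair these stages, as the labels name 2 families that recur at each stage. Their differences correlated at 0.374 to 0.431 between stages, over 9311 features averaging 8 CPM or more.

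By the naming rule, features were taken by largest ratio (higher), largest of the smaller group mean (neither), highest female level (not seen in embryos), most embryo RNA with at most 3 female counts (lower), and largest called change that did not overlap (stages 11 to 28), 2 each. The rule gave none for lower. The comparison, classes and rules were chosen with earlier results of these data known. Alternatives were DESeq2 1.42.0, limma-voom (limma 3.58.1), other scalings, filters and thresholds, thinning, and leaving out libraries. Other steps used Python 3.11.15.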

Additional observations from a re-analysis of the deposited data

Results flagged for a closer look

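XLOC_016473, the abundant feature at a similar level in the female and the early embryo, had a sample far from the others among the 4 embryo libraries of stages 6 and 8. Family 1 at stage 8 had 2305 CPM, and the others lay between 3257 and 3416. In all, 17 sets of libraries were checked in this way and 1 such sample was found, while chance flags about 1 in 20 sets.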

How the results depend on the processing

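The store held 7408 to 7488 features when 1 library was left out, with 207 to 319 features higher and 155 to 254 lower in the female, 0 to 1 with at most 3 counts there, and 40 to 64 female features not seen in the embryos. Over all features considered, the ranges were 1986 to 2306 higher and 744 to 1145 lower, against 2102 and 793. Scaling by library totals gave 264 lower in the store and 1240 over all features. A store minimum of 5 CPM gave 243 lower features and one of 20 CPM gave 92. A ratio of at least 10 gave 54 higher and 33 lower in the store, and 1058 and 206 over all features. Thinning every library to the smallest total gave 6 store features with at most 3 female counts and 62 female features not seen in the embryos, as fewer counts were left. DESeq2 size factors and leaving out features that overlap the other strand moved none of these counts by over 1.5 times. The cause of the other shifts was not tested.

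Between stages 11 and 28, leaving out 1 library gave 1493 to 2385 rising and 925 to 1861 falling features. Rising shares were then 39.2% to 54.9% of the class higher in the female, 3.62% to 6.68% of the class called neither way and 0.649% to 1.92% of the class that was lower. Falling shares were 9.41% to 11.4%, 9.27% to 18.1% and 13.5% to 27.6%. Where this leaves a stage with 1 library, that library is assumed to vary like the others. With family as a replicate block, 13.3% of the class called neither way rose and 44.8% of the class that was lower fell. DESeq2, limma-voom, DESeq2 size factors and no filter on low counts moved none of these counts or shares by over 1.5 times, apart from what is given above. No named feature changed direction.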
